A study of Mus musculus with 192 samples.

Results

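The genes of glutathione synthesis and of the thioredoxin system were chosen by name, as Gclc, Gclm, Gss, Gsr, Slc7a11, Txnrd1, Txn1, Srxn1, Prdx1 and Gpx2. They were 10 of the 54752 genes in the table, and all 10 were found. RNA had been sequenced from 9 tissues of male C57BL/6 mice (a C57BL/6J background by the methods), labelled as 12 weeks old, in 4 groups of wild-type (WT) or Nrf2-KO mice that were either flown to the International Space Station (FL) or kept as ground controls (GC). The groups are written GC_WT, FL_WT, GC_KO and FL_KO. Kidney (Kid), liver (Liv), cerebrum (Cbr), thymus (Thy) and spleen (Spl) were sampled beside the mandible (MdB) and the temporal bone (TpB) and 2 fat depots, the white epididymal (eWAT) and the brown interscapular one (iBAT). Nrf2-KO mice lacked functional Nrf2 in every cell, and those with a hepatic shunt had been removed before the experiment. All mice were housed singly, and the ground control was run later and at another place than the flight, so flight cannot be told apart from time and place. Flight mouse 04, a Nrf2-KO mouse that bled into the intestine, was left out. This left 184 of 192 samples, with 6 mice per group (5 in FL_KO), except 3 per group in Kid and MdB and 2 in FL_KO of MdB.

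Glutathione is a tripeptide that is made in the cytosol from cysteine, glutamate and glycine. Cystine enters through the antiporter whose light chain is Slc7a11, glutamate-cysteine ligase (catalytic subunit Gclc, modifier subunit Gclm) makes the rate-limiting dipeptide, and glutathione synthetase (Gss) adds glycine. Glutathione reductase (Gsr) returns oxidised glutathione to its reduced form with NADPH, and Gpx2 is a glutathione peroxidase best known from epithelia. In the thioredoxin system, Txnrd1 reduces thioredoxin (Txn1) with NADPH, thioredoxin reduces the peroxidase Prdx1, and sulfiredoxin (Srxn1) rescues peroxiredoxins that have been over-oxidised. The transcription factor Nrf2 is encoded by Nfe2l2. Together with small Maf proteins it binds antioxidant response elements, whose core is written TGACNNNGC, and many of these 10 genes are known as its targets.

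The core was searched on both strands of the RefSeq promoters of build GRCm38.p6, each reaching from 250 bases before to 50 bases after a start. Promoters were at hand for 8 of the 10 genes (10 promoters, of which 3 belong to Txnrd1), and Gclc and Gsr had none. The core stood in 4 of these 10 promoters, which belong to Gclm, Txnrd1, Srxn1 and Prdx1, against 12.4% of all 32851 promoters of the same length. The bases in front of the first exon are shown for Gclm, Txnrd1 and Prdx1, because these genes had a promoter at hand and were called lower in Nrf2-KO kidneys both on the ground and in flight, and for Srxn1 30 bases around the match are shown. They are written 5′ to 3′ on the plus strand, which is the strand of all 4 genes. Capitals mark the core, which in all 4 lies on the other strand and is printed here as its reverse complement. The start of Txnrd1 shown is 1 of 3 and lies inside the gene. Distances of the core are counted from the start that defines the promoter. For Prdx1 and Txnrd1 that start lies past the last base printed. In these genes the core is therefore nearer to the first exon than the distance given. A match is a run of letters and not a measured binding site.

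Gclm, chr3:122245307-122245556, core 134 bases before the start: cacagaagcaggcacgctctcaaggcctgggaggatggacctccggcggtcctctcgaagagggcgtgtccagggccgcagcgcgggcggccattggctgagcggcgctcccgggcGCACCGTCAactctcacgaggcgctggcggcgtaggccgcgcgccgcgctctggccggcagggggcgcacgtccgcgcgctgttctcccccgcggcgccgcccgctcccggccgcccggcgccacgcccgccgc
Txnrd1, chr10:82858956-82859178, core 92 bases before the start: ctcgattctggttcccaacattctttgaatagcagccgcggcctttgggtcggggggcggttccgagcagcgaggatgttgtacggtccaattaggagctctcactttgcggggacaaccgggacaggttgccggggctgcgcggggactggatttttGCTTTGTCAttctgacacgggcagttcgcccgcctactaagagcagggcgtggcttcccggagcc
Prdx1, chr4:116685349-116685543, core 133 bases before the start: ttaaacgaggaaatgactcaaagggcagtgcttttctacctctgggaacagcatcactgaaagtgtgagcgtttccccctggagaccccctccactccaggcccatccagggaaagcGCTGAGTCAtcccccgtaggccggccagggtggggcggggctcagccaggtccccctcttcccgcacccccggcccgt
Srxn1, chr2:152105542-152105571, core 28 bases after the start: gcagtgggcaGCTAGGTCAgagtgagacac

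Across tissues, kidney had the highest mean transcript levels of Gclc, Gclm and Gss. Levels between genes and tissues are given as TPM, which is scaled by transcript length and to the same total in each library, and thymus is named apart because its libraries were made from rRNA-depleted total RNA rather than poly(A) RNA. In GC_WT, Gclm was highest in Kid at 256 ± 21.5 TPM (SD, n = 3), with every kidney above every liver (143.7 ± 22.4, n = 6). Gss stood still further apart, at 191 ± 13.6 TPM in Kid and 34.9 ± 3.36 in Liv. Gclc was 143 ± 12.6 TPM in Kid and 132 ± 36.4 in Liv, whose ranges overlapped, and it was lowest in iBAT at 8.12 TPM. Kidney also had the highest means of Gsr (91.4), Txnrd1 (67.7), Txn1 (196.5) and Prdx1 (732 TPM), of which Gsr overlapped with MdB, and Txnrd1 and Prdx1 overlapped with Liv.

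The remaining members had other leading tissues. Srxn1 was highest in Cbr at 80.3 TPM, with a range of 74.0 to 85.1 that overlapped the wide range of TpB (30.7 to 94.5), and it was lowest in Spl at 5.85 TPM. Slc7a11 led in Thy (15.1 TPM, range 11.4 to 18.01), followed by Cbr (7.53), TpB (5.50) and Spl (5.08), of which the last 3 overlapped in turn. In Liv, iBAT and Kid, Slc7a11 had GC_WT means of at most 0.0133 TPM and fell below the count filter. Gpx2 was found in bone only among the tissues tested, at 58.8 TPM in TpB (32.6 to 114) and 32.2 in MdB (25.2 to 36.9), and elsewhere its GC_WT means were at most 0.25 TPM. Of the 90 pairs of gene and tissue, 80 passed the count filter and were tested.

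**Figure D1:**
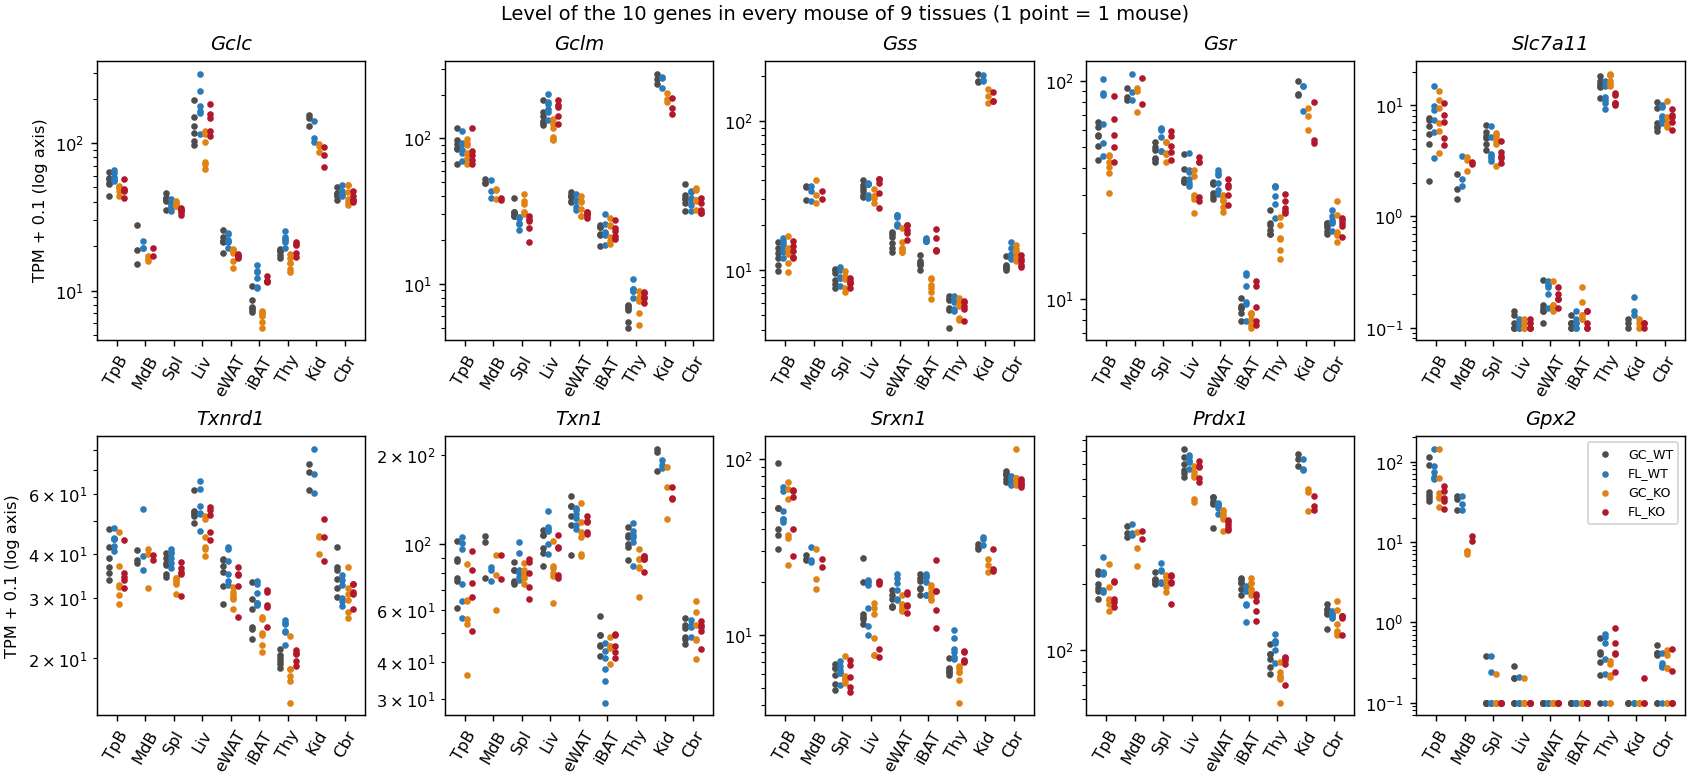
TPM + 0.1 on a log axis for each of the 10 genes (panels) by tissue, with 1 point per mouse coloured by group. Kidney points lie above those of all other tissues for Gss in every group and for Gclm in GC_WT, while Gclm in Nrf2-KO kidneys overlaps with liver, Slc7a11 is near 0 in Liv, iBAT and Kid, and Gpx2 is well above 0 in TpB and MdB alone.

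The libraries held 13.1 to 16.3 expected counts in units of 1000000, and 8.01 to 10.6 in Thy. Nfe2l2 itself, counted over all exons, was lower in every Nrf2-KO sample than in any WT sample of the same tissue, at 28.2 to 47.9% of WT in 8 tissues and at 81.9% in Spl; the transcript that remains can still hold exons outside the deletion. The 5 marker genes of each tissue (the bones share a list) exceeded 1 TPM in all of its libraries. In iBAT, 10 skeletal muscle genes summed to 8321, 4057 and 10090 TPM in flight mice 06, 08 and 11, against 36.1 to 139 in the other 20 libraries. TpB libraries were mixed in marrow and muscle, with muscle sums of 431 to 31630 TPM.

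In Nrf2-KO mice on the ground, 11 of the 80 tested pairs of gene and tissue were called lower than in WT and 0 were called higher (edgeR quasi-likelihood test, Benjamini-Hochberg adjusted p under 0.05 over all genes of a tissue). That is 13.8% of the pairs, against 1.65% of all gene and tissue pairs called in this comparison (0.814% lower and 0.836% higher). The pairs were Gclc, Gclm, Txnrd1 and Prdx1 in Kid, Gclc, Gclm, Gsr and Txnrd1 in eWAT, Txnrd1 in Liv, Gss in iBAT and Gpx2 in MdB. Over all 80 pairs, 64 fold changes were below 0 with a median of -0.16 on the log2 scale, and 36 of the 39 pairs with an unadjusted p under 0.05 were lower in Nrf2-KO (10.8% of all pairs were under it). By tissue, the median log2 fold change over all genes was -0.005 to 0.014. The share of all pairs below 0 was not counted. The 80 pairs come from the same mice and are not separate observations. DESeq2 called 16 pairs, all lower, and the share of all pairs that it called is not given here. In tissue that holds many cell types, fewer cells of a type and less RNA per cell cannot be told apart.

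In kidney all 8 tested genes were below WT and 4 were called (1.61% of all genes were called in Kid). Liver also had all 8 below WT, and eWAT also had 4 called. Gclc was 154, 129 and 147 TPM in GC_WT and 97.9, 86.9 and 94.8 TPM in GC_KO, a log2 fold change of -0.64 ± 0.12 (SE, edgeR adjusted p = 0.0166). Its partner subunit Gclm was 255, 236 and 278 TPM in GC_WT and 186, 206 and 179 in GC_KO (-0.44 ± 0.07, edgeR adjusted p = 0.00739). No WT kidney overlapped with a Nrf2-KO kidney in either gene. The call of Gclc was lost in 4 of 12 fits without 1 kidney (GC_KO mouse 11 or 12, GC_WT mouse 6 or 10; edgeR adjusted p up to 0.0963), and that of Gclm in 1 (GC_KO mouse 12, edgeR adjusted p = 0.0507). Over 9 other settings the call was lost in 1 for Gclc and in 3 for Gclm.

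In the thioredoxin branch of the kidney, Txnrd1 was 69.2, 61.3 and 72.8 TPM in GC_WT and 44.9, 39.9 and 45.2 TPM in GC_KO (log2 fold change -0.64 ± 0.09, edgeR adjusted p = 0.0019). Prdx1, the most abundant member, was 779, 736 and 682 TPM against 538, 429 and 520 TPM (-0.58 ± 0.09, edgeR adjusted p = 0.00267). Again the groups did not overlap. Srxn1 (32.9, 30.8 and 31.3 against 22.6, 24.9 and 26.8 TPM) and Gss (206, 186 and 181 against 164, 146 and 131 TPM) did not overlap between genotypes either, but their adjusted p of 0.0589 and 0.0973 in edgeR missed the threshold. Gsr (-0.44) and Txn1 (-0.38) had adjusted p of 0.199 and 0.201 in edgeR, and only Txn1 overlapped between the genotypes. The kidney marker list summed to 67350 to 71840 TPM in GC_WT and 66060 to 89620 in GC_KO, so the groups overlapped in it.

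**Figure D2:**
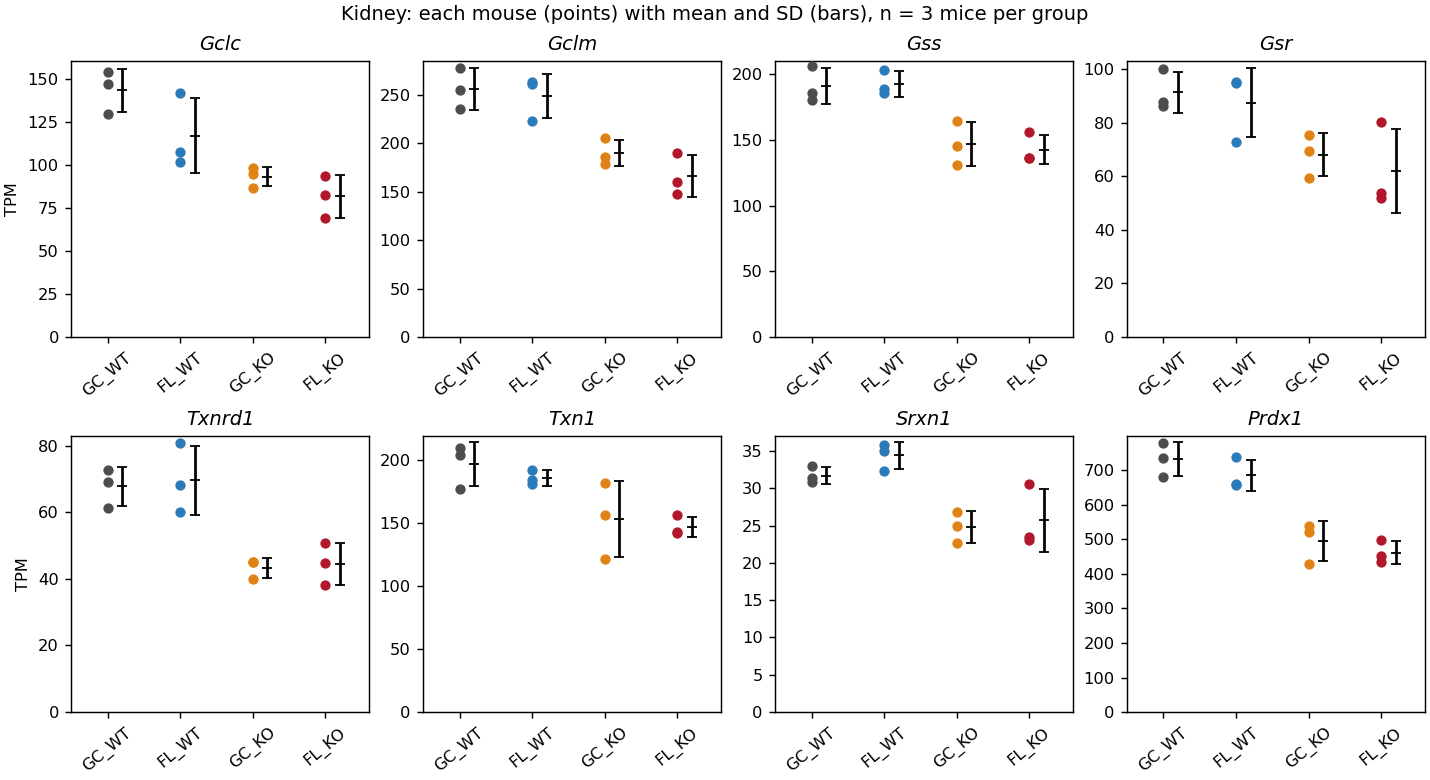
Kidney TPM of the 8 tested genes, with 1 point per mouse and bars for mean and SD (n = 3 mice per group). For Gclc, Gclm, Gss, Txnrd1, Srxn1 and Prdx1 each Nrf2-KO mouse lies below each WT mouse of the same condition, with no WT and Nrf2-KO overlap. The share of all kidney genes without overlap was not counted.

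In eWAT, 4 of 9 tested genes were called lower in GC_KO (2.74% of all genes were called). Gclc ran from 17.8 through a median of 21.5 to 25.6 TPM in GC_WT and from 14.1 through 18.2 to 19.2 TPM in GC_KO. Its fold change was -0.43 ± 0.06 on the log2 scale (edgeR adjusted p = 0.000256), and the groups were apart on the scale of counts scaled to 1000000 per library (CPM) with TMM factors but overlapped in TPM. Txnrd1 was 28.7, 36.1 and 38.8 TPM (lowest, median and highest) in GC_WT and 27.8, 30.1 and 32.0 TPM in GC_KO (-0.32 ± 0.08, edgeR adjusted p = 0.0279), so the groups overlapped. Gsr, at 28.7, 32.0 and 34.2 TPM in GC_WT and 25.1, 28.2 and 30.1 TPM in GC_KO (-0.29 ± 0.06), and Gclm (-0.28 ± 0.07) had edgeR adjusted p of 0.0135 and 0.0406, with overlapping groups. On log2(TPM + 1) only Gclc was called in eWAT (limma adjusted p = 0.0319), with adjusted p of 0.115 for Gclm, 0.18 for Txnrd1 and 0.173 for Gsr, and over 9 other settings the call was lost in 6 for Gclm, 5 for Txnrd1, 3 for Gsr and 1 for Gclc. Txn1 had its smallest adjusted p here, with 91.8, 129 and 145 TPM against 90.7, 108 and 137 TPM, and was not called (-0.28 ± 0.10, edgeR adjusted p = 0.152). Adipocyte marker genes summed to 35030 to 44270 TPM in GC_WT and 27940 to 37980 TPM in GC_KO, and the part of this in the differences was not tested. Epididymis markers were near 0 in most eWAT libraries, at most 4.63 TPM in GC_WT and 21.6 TPM in GC_KO.

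The largest fold change of any member was that of Gpx2 in mandibular bone. Gpx2 was 34.5, 36.9 and 25.2 TPM in GC_WT and 7.51, 7.6 and 6.9 TPM in GC_KO. Every Nrf2-KO mandible thus lay far below every WT mandible, at 4.31-fold lower (log2 fold change -2.11 ± 0.20, edgeR adjusted p = 0.000403), in a tissue in which 0.244% of all genes were called. Keratinised epithelium markers summed to 3331 to 4209 TPM in GC_WT and 2628 to 4118 TPM in GC_KO, and simple epithelium markers to 86.2 to 125 and 84.8 to 113 TPM, so both overlapped. In TpB, Gpx2 was 32.6, 40.1 and 114 TPM (lowest, median and highest) in GC_WT and 27.2, 38.5 and 142 TPM in GC_KO, which did not differ beyond the spread (-0.18 ± 0.39).

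In iBAT, 1 of 8 genes was called (2.14% of all genes). Gss ran from 9.92 through 11.03 to 12.5 TPM in GC_WT and from 6.33 through 7.67 to 8.71 TPM in GC_KO, with no overlap (log2 fold change -0.46 ± 0.08, edgeR adjusted p = 0.000929). Gss shares its locus with Acss2, Gssos1 and Gssos2 on the other strand, and the strand setting of the counting was not given in the sources used here, so reads from these genes may enter its count. No member was called on the ground in TpB, Spl, Thy or Cbr by edgeR as fitted here. Slc7a11 had 4 of 6 fold changes above 0, the most in MdB (0.76 ± 0.26), and none was called. Its smallest adjusted p was that in Thy, where it ran from 11.4 through 15.1 to 18.01 TPM in GC_WT and from 14.9 through 17.6 to 19.1 TPM in GC_KO (0.27 ± 0.10, edgeR adjusted p = 0.153).

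**Figure D3:**
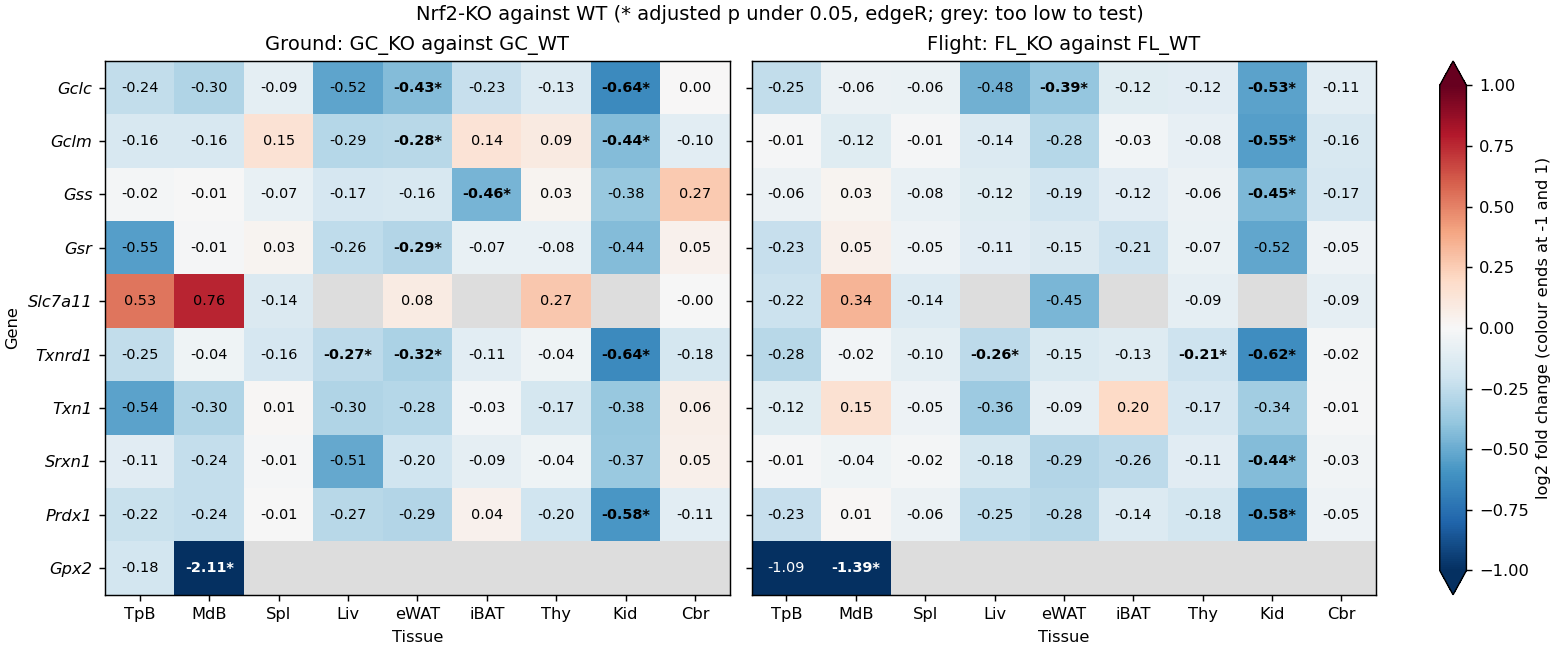
Log2 fold changes of Nrf2-KO against WT on the ground (left) and in flight (right), genes in rows and tissues in columns, with colours ending at -1 and 1, grey for pairs too low to test and a star for edgeR adjusted p under 0.05. All 21 stars are on negative values, and the Kid column is the most uniform in both panels.

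In liver all 8 tested genes were below WT on the ground, but only Txnrd1 was called, in a tissue where 2.64% of all genes were. Txnrd1 ran from 49.2 through 52.5 to 61.4 TPM in GC_WT and from 39.6 through 43.4 to 51.4 TPM in GC_KO (log2 fold change -0.27 ± 0.06, edgeR adjusted p = 0.00738), apart in CPM and overlapping in TPM. This call was lost in 3 of 9 other settings, among them log2(TPM + 1) (limma adjusted p = 0.1455). Gclc had a larger mean difference, -0.52 ± 0.18, with an edgeR adjusted p of 0.146. Its groups were wide, at 97.4 to 196 TPM in GC_WT and 66.7 to 120.3 in GC_KO.

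Liver levels moved with the number of the mouse, in flight and ground mice alike, although a number stands for 1 animal on the ground and another in flight. The labels do not say what the numbers stand for. Srxn1 was 7.52 to 9.52 TPM in GC_KO mice numbered 1 to 6 and 12.98 to 14.96 in those numbered 7 to 12, and in FL_KO it was 8.19 and 7.4 against 20.26, 19.9 and 19.4 TPM. In WT it was 11.4 to 12.97 against 12.5 to 27.1 TPM on the ground and 9.89 to 14.1 against 19.1 to 20.4 in flight. Gclc, Gclm, Gsr, Txnrd1 and Srxn1 had a higher mean in numbers 7 to 12 in all 4 groups, and Txn1 had a lower one. This split was looked at after the liver values had been seen, and the share of all liver genes that moved in this way was not counted. Over all tested genes, Nrf2-KO livers that share a number also deviated together from their group means (Pearson r of 0.22 to 0.37).

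On the ground, the means of all 8 genes were lower in Nrf2-KO within each set of numbers. In flight this held for 5 genes, whereas Srxn1 (log2 ratio -0.59 in numbers 1 to 6 and 0.01 in numbers 7 to 12), Gsr (-0.26 and 0.07) and Gss (-0.18 and 0.08) did not keep their sign. In Gclc on the ground, GC_KO averaged 71.2 against 106 TPM in numbers 1 to 6 (log2 ratio -0.57) and 112 against 159 TPM in numbers 7 to 12 (-0.50), with 3 mice each and no overlap in either set. In Srxn1 on the ground the means were 8.21 against 12.2 TPM (-0.57, apart) and 14.0 against 19.8 TPM (-0.50, overlapping). With the set of numbers as a term in edgeR, 6 of 8 genes were called lower in liver (5.75% of all genes were), namely Gclc (-0.54 ± 0.11, adjusted p = 0.00376), Gclm (-0.29, adjusted p = 0.00649), Gsr (-0.26, adjusted p = 0.0142), Txnrd1 (-0.27, adjusted p = 0.00107), Srxn1 (-0.53 ± 0.12, adjusted p = 0.0123) and Prdx1 (-0.27, adjusted p just under the threshold). Over all tissues the same term brought the pairs called from 11 to 21, all lower, against 2.49% of all gene and tissue pairs. The split had been picked after the liver values of these same genes were seen. The calls with this term are therefore a description and not separate support. In MdB only GC_WT held mice of both sets of numbers.

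**Figure D4:**
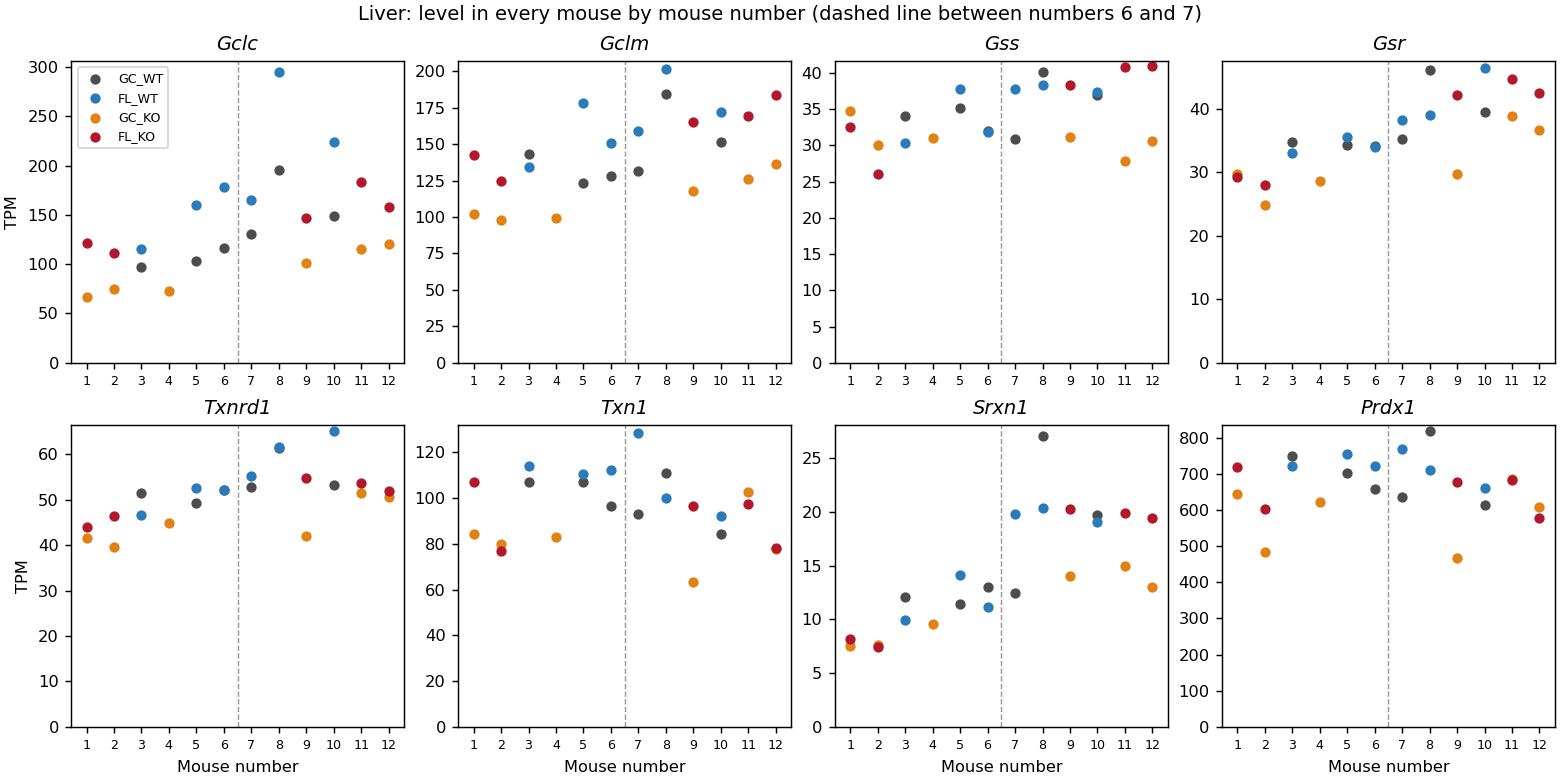
Liver TPM of the 8 tested genes (vertical axes) by mouse number, with 1 point per mouse coloured by group and a dashed line between numbers 6 and 7. Srxn1, Gclc, Gclm and Gsr have higher means to the right of the line in every group, and GC_KO points lie lowest on both sides for Gclc.

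In flight, the genotype difference was seen again in other mice. Of 80 pairs, 10 were called lower in FL_KO than in FL_WT and 0 higher, or 12.5% against 1.35% of all gene and tissue pairs (0.855% lower and 0.5% higher), and 74 fold changes were below 0. By tissue, the median log2 fold change over all genes was -0.009 to 0.017, and the share of all pairs below 0 was not counted. Kid held 6 of the 10, where 1.83% of all genes were called. Txnrd1 was 60.1, 80.7 and 68.0 TPM in FL_WT and 38.2, 44.8 and 50.7 TPM in FL_KO (log2 fold change -0.62 ± 0.09, edgeR adjusted p = 0.00203). Prdx1 was 661, 659 and 738 against 452, 433 and 499 TPM (-0.58 ± 0.09, edgeR adjusted p = 0.00262). Gclm was 223, 261 and 263 against 148, 161 and 189.8 TPM (-0.55 ± 0.07, edgeR adjusted p = 0.00107). In these genes no FL_KO kidney reached a FL_WT kidney.

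Gclc (-0.53), Gss (-0.45) and Srxn1 (-0.44) were also called in Kid, with edgeR adjusted p of 0.0459, 0.0365 and 0.0204, and each lost its call in 4 to 9 of the 12 fits that left out 1 kidney. Leaving out FL_KO mouse 1 or FL_KO mouse 2 brought the 10 calls to 6. Outside the kidney, Gclc in eWAT (-0.39 ± 0.07, edgeR adjusted p = 0.00252), Txnrd1 in Liv (-0.26 ± 0.06, edgeR adjusted p = 0.0107) and in Thy (-0.21 ± 0.05, edgeR adjusted p = 0.0326) and Gpx2 in MdB were called, against 1.06%, 3.65%, 2.64% and 0.208% of all genes of these tissues. The call of Txnrd1 in Thy was lost without FL_KO mouse 1, 2, 9 or 11 (4 of 5 fits, edgeR adjusted p up to 0.124) and in 6 of 9 other settings. That of Txnrd1 in Liv was lost in 4 of 9 other settings, among them log2(TPM + 1) (limma adjusted p = 0.403). Gpx2 was 24.7, 36.8 and 29.3 TPM in the 3 FL_WT mandibles and 11.7 and 10.2 TPM in the 2 FL_KO mandibles (-1.39 ± 0.22, edgeR adjusted p = 0.0291). That call rested on few mandibles and was lost without FL_KO mouse 1 or 2 or FL_WT mouse 5 (3 of 11 fits), with adjusted p up to 0.301 in edgeR, whereas the ground call of Gpx2 was kept in all 11. In TpB, where Gpx2 was not called, each FL_KO mouse (25.8 to 49.96 TPM) lay below each FL_WT mouse (61.1 to 143.6 TPM), at a log2 fold change of -1.09. The ground and flight comparisons share no mice.

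Flight calls of members were mainly in brown fat and thymus, and not in 1 direction. These were also the tissues with the largest shares of all genes called with flight. The shares were 19.2% (WT) and 33.5% (Nrf2-KO) in iBAT, and 22.8% and 38.2% in Thy. Between FL_WT and GC_WT, 4 pairs were called higher and 5 lower, which is 11.2% of 80 against 6.55% of all gene and tissue pairs (3.23% higher and 3.32% lower). Between FL_KO and GC_KO, 4 were called higher and 6 lower, or 12.5% against 8.91% (4.43% higher and 4.48% lower). By edgeR, no member was called with flight in Kid, Spl, Cbr, MdB or TpB in either genotype. Direction depends on the scale here, since the median of all genes moved with flight on the TPM scale by 0.31 (WT) and 0.43 (Nrf2-KO) in iBAT and by 0.18 and 0.16 in Thy on the log2 scale, but by at most 0.04 with TMM factors. On log2(TPM + 1) with limma, 9 pairs were called higher and 3 lower in each genotype, among them Gclm in Spl of Nrf2-KO (-0.42, limma adjusted p = 0.0415), Gclc in Thy of WT (0.28) and Nrf2-KO (0.32), and Gclc in Liv of Nrf2-KO (0.66), none of which edgeR called. Of all genes, limma called 59.3% (WT) and 70.8% (Nrf2-KO) with flight in iBAT, and 41.0% and 36.7% in Thy. Values in iBAT and Thy are therefore given as CPM with TMM factors.

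In iBAT, 4 of 8 genes were called in WT and 6 of 8 in Nrf2-KO, where 19.2% and 33.5% of all genes were called. Prdx1 ran from 138 through 154 to 168 CPM in GC_WT and from 88.9 through 107 to 124 CPM in FL_WT (log2 fold change -0.54 ± 0.07, edgeR adjusted p = 2.42e-05). In Nrf2-KO it ran from 143 through 162 to 172 CPM on the ground and was 89.3, 98.0, 107, 100.1 and 91.0 CPM in flight (-0.71 ± 0.08, edgeR adjusted p = 3.97e-07). All flight mice were below all ground mice in both genotypes, and Prdx1 was called lower on the TPM scale as well (-0.22 and -0.27).

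Txn1, its electron donor, ran from 32.6 through 41.1 to 44.6 CPM in GC_WT and from 20.8 through 25.6 to 31.4 CPM in FL_WT, with no overlap (log2 fold change -0.63 ± 0.10, edgeR adjusted p = 8.93e-05). In Nrf2-KO it ran from 34.7 through 39.2 to 44.0 CPM on the ground and was 34.9, 31.9, 27.1, 26.0 and 29.3 CPM in flight (-0.40 ± 0.10, edgeR adjusted p = 0.0043), and this difference was reversed in sign on the TPM scale (0.03, adjusted p = 0.776 in limma). Srxn1 was called lower in Nrf2-KO (-0.45 ± 0.13, edgeR adjusted p = 0.0116), with 21.4 to 44.2 CPM in flight inside and below the 36.6 to 47.4 on the ground, while in WT it was -0.28 ± 0.12 with no overlap (edgeR adjusted p = 0.123). On the TPM scale Srxn1 was -0.04 in Nrf2-KO and 0.03 in WT, with no call (limma adjusted p = 0.79 and 0.874). Txnrd1 was not called, at 63.5, 70.6 and 72.9 CPM in GC_WT and 60.02, 62.6 and 64.2 CPM in FL_WT (-0.15 ± 0.07, edgeR adjusted p = 0.139). On the TPM scale its sign turned, to 0.18 in WT (limma adjusted p = 0.0735) and to 0.27 in Nrf2-KO, where it was called higher (limma adjusted p = 0.0101).

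The genes of glutathione synthesis went apart in iBAT. Gclc rose, from 19.4, 23.3 and 26.1 CPM (lowest, median and highest) in GC_WT to 24.7, 28.8 and 32.0 in FL_WT (log2 fold change 0.30 ± 0.09, edgeR adjusted p = 0.0203), and from 17.1, 19.6 and 22.3 in GC_KO to 28.2, 30.3, 25.7, 23.6 and 22.8 CPM in the 5 FL_KO mice (0.41 ± 0.09, edgeR adjusted p = 0.00172). Gss rose in Nrf2-KO, from 9.83 to 14.2 CPM on the ground to 18.5, 17.4, 16.3, 17.8 and 20.3 CPM in flight (0.53 ± 0.08, edgeR adjusted p = 2.6e-05). In WT, Gss was 0.19 ± 0.07 (edgeR adjusted p = 0.0825). On the TPM scale Gss was called higher in both genotypes, at 0.47 in WT (limma adjusted p = 5.81e-05) and 0.89 in Nrf2-KO (limma adjusted p = 2.33e-08). Gclm, at 29.99, 35.9 and 37.8 CPM in GC_WT and 21.9, 27.2 and 31.2 CPM in FL_WT, fell with TMM factors in both genotypes (-0.36 ± 0.11 and -0.53 ± 0.11, edgeR adjusted p = 0.0203 and 0.00105), but on the TPM scale it was 0.03 and 0.02 with no call in limma.

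Other cells moved with flight in the same tissue. Erythroid markers in iBAT summed to 326 to 620 TPM in GC_WT and 168 to 272 in FL_WT, and to 262 to 553 in GC_KO and 207 to 314 in FL_KO. Macrophage markers summed to 19.97 to 57.4 against 33.4 to 57.1 TPM in WT and to 17.6 to 32.5 against 40.7 to 83.5 TPM in Nrf2-KO. Brown fat markers overlapped between flight and ground in both genotypes. The part of these cells in the differences was not tested. Without flight mice 06, 08 and 11, which carried muscle RNA, all calls of members with flight in iBAT were kept in both genotypes except that of Gclm in WT (-0.29 ± 0.12, edgeR adjusted p = 0.101).

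**Figure D5:**
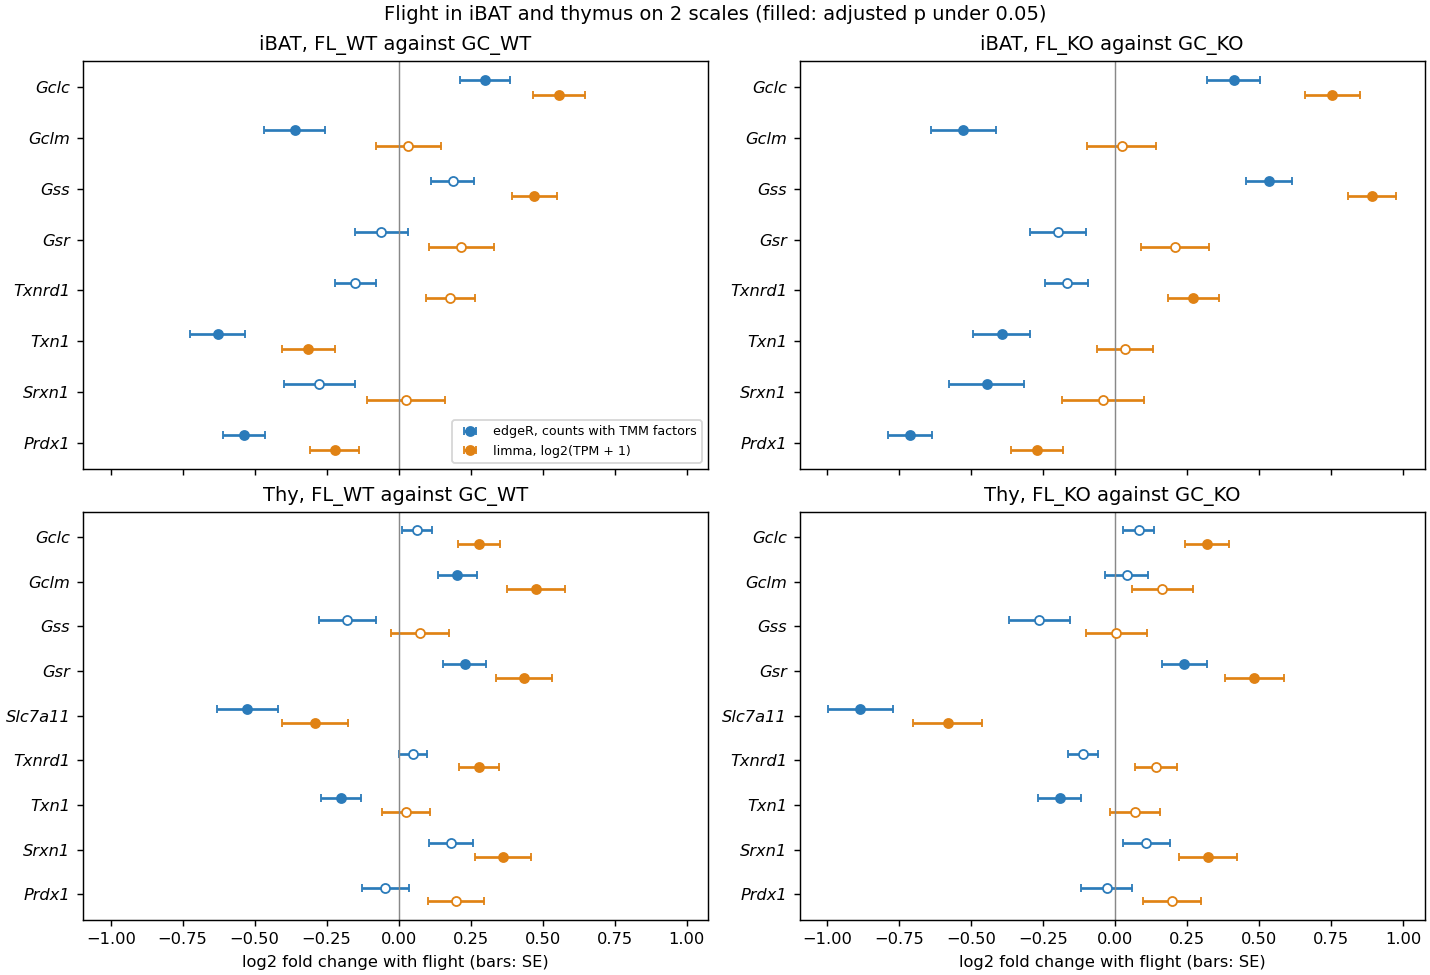
Log2 fold changes with flight (horizontal axis, bars for SE) in iBAT (top) and Thy (bottom) of WT (left) and Nrf2-KO mice (right), from counts with TMM factors (blue) and from log2(TPM + 1) (orange), filled where adjusted p was under 0.05. Prdx1 in iBAT and Slc7a11 in Thy keep a filled mark below 0 on both scales, Gclc in iBAT and Gsr in Thy above 0, and Gclm in iBAT moves from below 0 to about 0. Prdx1 in Thy has no filled mark.

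In thymus the cystine carrier fell. Slc7a11 ran from 93.9 through 139 to 149.8 CPM in GC_WT and from 74.0 through 90.8 to 114 CPM in FL_WT (log2 fold change -0.53 ± 0.11, edgeR adjusted p = 0.000887), with overlap. In Nrf2-KO it ran from 146 through 159.9 to 182 CPM on the ground and was 92.5, 89.1, 99.97, 79.2 and 78.3 CPM in flight, with a wide gap between the groups (-0.89 ± 0.11, edgeR adjusted p = 2.79e-06). Both differences were called on the TPM scale too (-0.29 and -0.58). Gsr, at 57.0, 60.5 and 67.7 CPM in GC_WT and 56.7, 72.7 and 81.4 CPM in FL_WT, rose in both genotypes, by 0.23 ± 0.07 (edgeR adjusted p = 0.0289) and 0.24 ± 0.08 (edgeR adjusted p = 0.0195), and Gclm rose in WT by 0.20 ± 0.07 (edgeR adjusted p = 0.0333). The call of Gsr in Nrf2-KO was lost without FL_KO mouse 11 (edgeR adjusted p = 0.0621), and that of Gclm without FL_KO mouse 1 or 11 (up to 0.059).

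Srxn1 was not called, at 17.3, 18.2 and 21.9 CPM in GC_WT and 18.9, 20.5 and 25.5 CPM in FL_WT (0.18 ± 0.08, edgeR adjusted p = 0.0852), but on the TPM scale it was called higher in WT (0.36, limma adjusted p = 0.00558) and in Nrf2-KO (0.32, limma adjusted p = 0.0158). Txn1 in Thy was lower with TMM factors by -0.20 ± 0.07 in WT and -0.19 ± 0.08 in Nrf2-KO (edgeR adjusted p = 0.0432 and 0.0454), and these small differences turned to 0.03 and 0.07 on the TPM scale. The call in Nrf2-KO was lost without FL_KO mouse 1, 11 or 12 (3 of 5 fits, edgeR adjusted p up to 0.1345). The 4 of 9 genes called in WT and 3 of 9 in Nrf2-KO stand against 22.8% and 38.2% of all genes in Thy. Thymocyte markers summed to 1184 to 1800 TPM in GC_KO and 1114 to 1270 in FL_KO, macrophage markers to 78.5 to 107 and 145 to 190, and simple epithelium markers to 215 to 447 and 404 to 473 TPM. In WT the thymocyte sums were 1572 to 1899 against 1443 to 1757 TPM. The part of these cells was not tested.

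Elsewhere flight was called in 2 pairs. Gss in eWAT ran from 13.1 through 15.9 to 17.8 TPM in GC_WT and from 19.7 through 21.5 to 23.4 in FL_WT (log2 fold change 0.33 ± 0.11, edgeR adjusted p = 0.0412), in a tissue where 13.4% of all genes were called. Gclm in Liv ran from 98.1 through 109.8 to 136.5 TPM in GC_KO and was 142, 125, 165, 169 and 183 TPM in FL_KO (0.31 ± 0.08, edgeR adjusted p = 0.0409), where 3.34% of all genes were called, and it lost its call without FL_KO mouse 1, 9, 11 or 12 (4 of 5 fits). Liver samples of Nrf2-KO mice deviated together by number, and with the mouse number as a block Gclm was 0.28 (edgeR adjusted p = 0.0222) and Gclc was also called, at 0.45 (edgeR adjusted p = 0.0132, against 0.174 without the block). In WT livers the block also gave a call of Gclc, at 0.43 (edgeR adjusted p = 0.0103). The blocked difference of flight responses of Gclc in Liv was 0.02 and was not called. In FL_KO, Gclc in Liv was 121, 111, 147, 184 and 158 TPM, against 66.7 to 120.3 TPM in GC_KO.

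Whether the flight response differed between genotypes was tested directly. The edgeR test of the difference called 0 of the 80 pairs (0.0% of all pairs), as did DESeq2 and limma, and 7 pairs had an unadjusted p under 0.05, next to 4.96% of all gene and tissue pairs. They included Gss in Cbr (-0.43 ± 0.11, edgeR adjusted p = 1.0), Gss in iBAT (0.35 ± 0.11, edgeR adjusted p = 0.303) and Slc7a11 in Thy (-0.36 ± 0.15, edgeR adjusted p = 0.546). The flight calls of single genotypes in these genes are thus not shown to differ. For Txnrd1 in Kid, the flight effect had a 95% interval of -0.20 to 0.15 in WT and -0.19 to 0.17 in Nrf2-KO, and edgeR made no flight call of Txnrd1 in any tissue. On the TPM scale Txnrd1 was called higher with flight in Thy of WT (0.28, limma adjusted p = 0.00407) and in iBAT of Nrf2-KO.

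A wider list of 35 genes that supply glutathione or act beside these systems was examined for the same contrasts, and 300 of 315 pairs were tested. On the ground 7 pairs were called lower in Nrf2-KO and 0 higher, or 2.33%, close to the 1.65% of all pairs. They included Gpx3, the plasma glutathione peroxidase, in iBAT (log2 fold change -0.59, edgeR adjusted p = 0.00224), Gpx4, which reduces lipid hydroperoxides, in Liv (-0.41, edgeR adjusted p = 0.00465) and Oplah, which returns 5-oxoproline to glutamate, in eWAT (-0.43, edgeR adjusted p = 0.00874). In flight 5 pairs were lower in FL_KO (1.67% against 1.35%), those of Gpx4 in Liv and Kid and of Msra, a methionine sulfoxide reductase, in Liv, iBAT and Thy. By sub-list, on the ground 2 of 85 pairs of precursor supply and turnover, 3 of 44 of other glutathione peroxidases, 1 of 36 of glutaredoxins, 0 of 54 of other thioredoxins and reductases, 0 of 45 of other peroxiredoxins and 1 of 36 of methionine sulfoxide reductases were called, all lower.

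With flight, 9 pairs of the wider list were called higher and 14 lower in WT (7.67% against 6.55%), and 10 higher and 26 lower in Nrf2-KO (12.0% against 8.91%). In WT the smallest adjusted p were those of Oplah in eWAT (log2 fold change -0.997, edgeR adjusted p = 1.01e-06), the mitochondrial peroxiredoxin Prdx3 in iBAT (-0.58, edgeR adjusted p = 1.26e-06) and Gpx4 in iBAT (-0.63, edgeR adjusted p = 2.38e-05). Against the 3 higher calls of other glutathione peroxidases, Gpx4 and Gpx1 (-0.37) were lower in iBAT. In Nrf2-KO they were Prdx3 (-0.89, edgeR adjusted p = 2.05e-09), Gpx3 (1.15, edgeR adjusted p = 8.97e-08) and Msra (-0.62, edgeR adjusted p = 2.76e-07), all in iBAT.

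In Nrf2-KO some genes were called against most of their sub-list. Among precursor supply and turnover (4 higher, 5 lower), the higher ones were Slc3a2, the heavy chain of the cystine antiporter, in Liv (0.27), Cth, which makes cysteine from cystathionine, in iBAT (1.05), and Oplah (0.38) and Ggt5 (0.86) in Thy. Gpx4 in iBAT (-0.75) was the 1 lower call among other glutathione peroxidases, and Prdx5 in eWAT (0.44) the 1 higher call among other peroxiredoxins, against 7 lower. Msrb3 was higher in iBAT (0.35) and Thy (0.45), against 5 lower calls of methionine sulfoxide reductases.

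Patterns over the 36 means of tissue and group, centred within each tissue, were compared on log2(TPM + 1). Among the members, the closest pairs were Gsr and Txnrd1 (Pearson r = 0.814), Txnrd1 and Srxn1 (r = 0.798) and Txn1 and Prdx1 (r = 0.785), whereas Slc7a11 and Gpx2 had r = -0.432. Of 5791 other genes, the most alike was Sqstm1 for Gclc (r = 0.88), Cxcl12 for Gsr (r = 0.862), Akr1a1 for Txnrd1 (r = 0.855), Ostc for Gss (r = 0.839), Spg7 for Srxn1 (r = 0.801) and Chpt1 for Gclm (r = 0.73). For both Prdx1 and Txn1 it was Gpx4 (r = 0.835 and 0.809), and for Gpx2 and Slc7a11 it was Gsta4 (r = 0.676) and Gm15446 (r = 0.484). These correlations are descriptions over means that share libraries.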

How the data were processed

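Poly(A) RNA, or rRNA-depleted total RNA in thymus, was sequenced by the authors as strand-specific libraries. Per the labels, reads were processed with bcl2fastq, STAR 2.6.1 and RSEM 1.3.1 on mm10. Per gene, the authors deposited expected counts that were not normalized, reads that fit several genes being split between them. The TPM were deposited by the authors as RSEM gave them and sum to 1000000 per library. The 192 FPKM columns were not used.

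Expected counts were rounded and fitted per tissue over all 4 groups with edgeR 4.0.16 in R 4.3.3 (filterByExpr, TMM, glmQLFit, glmQLFTest), and p-values were adjusted over all genes of the tissue with a threshold of 0.05. The method was tested on simulated data. Other settings were a fit with DESeq2 1.42.0 and one with limma 3.58.1 on log2(TPM + 1) or log2(TPM + 0.1) of genes with a mean of at least 5 TPM in some group, or without that filter, RLE factors, no count filter, flight mouse 04 included, only the groups of the contrast, library set in TpB, mouse number as a block, and fits without 1 mouse of any group that held 5 or fewer. A term for mouse numbers and iBAT without 3 libraries were added after the data had been seen.

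The members and lists were chosen with earlier results of these data known. Each member was described in full in the tissues of smallest adjusted p for genotype on the ground and for flight in WT and wherever called. Of the wider list, up to 3 genes per contrast by adjusted p and those called against most of their sub-list were named. Nothing in the labels ties replicates to separate litters, so p-values measure the spread between these mice. Samples that share a number are different animals. Their deviations from group means correlated above 0.1 in all 5 pairs of Nrf2-KO livers (0.22 to 0.37) and in no other set of 5 or 6 pairs throughout, so blocked values are given there. Reads of Gpx2 and Txn1 may be shared with Gpx2-ps1 and Txn-ps1, at most 3.51 and 1.77 TPM.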

Additional observations from a re-analysis of the deposited data

Results flagged for a closer look

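Of 244 groups of 4 to 6 mice with a mean of at least 1 TPM, 19 held a mouse farther from the others than Dixon's 95% limit allows, and chance flags about 1 in 20 groups. The groups are those of the report, and no cause was tested.

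In TpB the highest mice were GC08 in GC_WT for Srxn1 (94.5 TPM, next 52.8), FL08 in FL_WT for Gpx2 (143.6 TPM, next 88.4), GC01 in GC_KO for Gpx2 (142 TPM, next 62.5) and FL01 in FL_KO for Txnrd1 (43.9 TPM, next 35.3). In Cbr, Srxn1 reached 114 TPM in GC02 of GC_KO (next 78.4), Slc7a11 reached 10.7 TPM in GC04 of GC_KO (next 7.73), Gss reached 12.3 TPM in GC06 of GC_WT (next 10.7), and Prdx1 was lowest in FL02 of FL_KO at 117 TPM (next 140.5).

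In Spl, Gclm was 39.0 TPM in GC08 of GC_WT (next 31.2), Srxn1 was 7.51 TPM in GC04 of GC_KO (next 5.69), and Txnrd1 was lowest in GC09 of GC_KO at 30.6 TPM (next 32.8). In Thy, FL12 of FL_KO was lowest for both Txn1 (80.6 TPM, next 88.6) and Prdx1 (69.3 TPM, next 86.5), and GC05 of GC_WT was highest for Srxn1 (7.28 TPM, next 6.32). In fat, Gclc was 12.5 TPM in iBAT of FL02 in FL_KO (next 11.5), Gss was 16.3 TPM in iBAT of FL05 in FL_WT (next 15.8) and 19.0 TPM in eWAT of GC02 in GC_KO (next 15.3), and Prdx1 was lowest in eWAT of GC06 in GC_WT at 358 TPM (next 461.5). In Liv, Txnrd1 was 61.4 TPM in GC08 of GC_WT (next 53.3).

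The flight effect in Nrf2-KO mice went in opposite directions in a pair of tissues, with no overlap in CPM, for 2 genes. Gclc was higher in all flight mice in iBAT (log2 fold change 0.41) and lower in all in Kid (-0.27, not called). Gss was higher in all flight mice in iBAT (0.53) and lower in all in Thy (-0.27, not called). On the TPM scale Gss in Thy was 0.002 (limma adjusted p = 0.989), so its opposite direction was not seen there, and Gclc in Kid was -0.20. These differences between tissues were not tested.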

How the results depend on the processing

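The genotype pairs called were lower under all settings run. On the ground they numbered 11, and 6 with limma on log2(TPM + 1) or log2(TPM + 0.1), 3 without the filter on low TPM, and 21 with the term for mouse numbers. In flight they numbered 10, and 6, 6 and 3 under the same limma settings and 5 with only the groups of the contrast. On log2(TPM + 1), limma called 0.203 to 3.47% of all genes of a tissue on the ground and 0.196 to 4.07% in flight. The shares of all genes under the other limma settings and with only the groups of the contrast are not given here. Flight in WT gave 9, and 5 (all lower) without the filter on low counts. Other settings stayed within 1.5 times of 11, 10, 9 and, for flight in Nrf2-KO, 10. Leaving out 1 mouse gave 9 to 13 and 6 to 10 genotype pairs on the ground and in flight, 8 to 9 and 7 to 11 flight pairs in WT and Nrf2-KO, and 0 to 0 for the difference of flight responses. Outside Kid and MdB only FL_KO mice were left out in turn. The flight calls in WT, all in other tissues, were therefore not tried without any WT mouse. Likewise, the ground genotype calls in eWAT, Liv and iBAT were not tried without any ground mouse.

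Signs of called pairs reversed on the TPM scale alone. With flight in WT, Gclm in iBAT was 0.034 with limma on log2(TPM + 1) with or without the filter and 0.035 with 0.1, and Txn1 in Thy was 0.026 in all 3. In Nrf2-KO, Gclm in iBAT was 0.022 and 0.023 with 0.1, Txn1 in iBAT 0.032 and 0.033, and Txn1 in Thy 0.068 and 0.069. The cause was not tested.

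With the mouse number as a replicate block in 7 tissues, 10 pairs were called for flight in WT, 11 in Nrf2-KO and 0 for the difference. Of all genes, the blocked fits called 20.2% (WT) and 32.4% (Nrf2-KO) with flight in iBAT, and 21.6% and 36.3% in Thy. In WT they called 1.55% in Spl, 5.59% in Liv and 14.9% in eWAT, and in Nrf2-KO they called 4.08% in Liv. Gclm and Txn1 in Thy of WT lost their calls under the block (edgeR adjusted p = 0.0521 and 0.0581), and Gsr in Spl, Gclc in Liv and Gclm in eWAT of WT gained one. Kid and MdB have 2 or 3 mice per group, which limits their calls.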

Other observations

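Flight mouse 04, which entered only the fits that tried its inclusion, had Gclc at 98.0 TPM in Liv, 10.4 in iBAT and 17.1 in eWAT, and Srxn1 at 7.32 TPM in Liv, 14.0 in iBAT and 75.7 in Cbr. Its liver value of Srxn1 was below the 7.4 and 8.19 TPM of the FL_KO mice numbered 2 and 1.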
